A study of Mus musculus with 6 samples.

Results

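Glucocorticoid-responsive liver genes were followed in mice with diet-induced insulin resistance (IR), as a set of 8 genes found by symbol among the 54532 genes of the deposited count table. They were Fkbp5, Tsc22d3, Sgk1, Dusp1, Klf9, Zbtb16, Hsd11b1 and Errfi1, and all 8 passed the filter on low counts, as did 13377 genes in all. Livers came from male C57BL/6J mice put on a high-fat diet (HFD) at 8 weeks of age and kept on it for 6 weeks. Every mouse was fasted for 16 h. Then 3 mice received insulin intraperitoneally at 0.75 units per kg body weight (IR insulin) and 3 received its carrier, bovine serum albumin (IR vehicle), and livers were collected 6 h afterwards. No chow-fed or uninjected mouse was analysed here, so the levels below describe fasted, injected animals on HFD. The comparison asks whether insulin changed the transcript levels of these genes.

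Glucocorticoids, corticosterone in the mouse, are adrenal hormones that rise with fasting, stress and the approach of the active phase. In hepatocytes the hormone binds the glucocorticoid receptor, encoded by Nr3c1, which leaves its chaperones, enters the nucleus and binds response elements near its target genes. The hormone favours gluconeogenesis and amino acid breakdown, on which insulin acts in the opposite direction, and several of the targets also respond to cyclic AMP or to growth factor signals.

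In short, insulin was not followed by a change in any of the 8 genes that passed the test at an adjusted p under 0.05. None of the 13377 genes tested passed it either, and the spread among the vehicle mice was wide. One vehicle mouse, replicate 3, carried the highest level of the 6 animals for every one of the 8 genes, and for 23.4% of all genes tested. In that liver Dusp1 stood 6.55-fold and Tsc22d3 4.89-fold above the median of the other 5 mice, and the remaining genes stood 1.39- to 1.93-fold above it. Without that mouse, the estimated difference turned from lower to higher with insulin for Tsc22d3, Dusp1 and Klf9 and stayed below 0 for Fkbp5, Sgk1, Hsd11b1 and Errfi1.

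Library totals ran from 18449986 to 21827619 counts. Levels are CPM, the counts of a gene scaled to a common library size, with TMM factors that correct for differences in library composition. They are given for vehicle replicates 1, 2 and 3 and then insulin replicates 1, 2 and 3. A negative log2 fold change means a lower level with insulin, and SE is its standard error. A gene was called at an adjusted p under 0.05 in edgeR's quasi-likelihood test, or, by the criteria in the study's methods, where the log2 fold change reached 0.35 in size and the unadjusted p lay under 0.05. Vehicle replicate 2 and vehicle replicate 3 each stood apart from the other libraries over many genes. They held the highest of the 6 levels for 35.8% and 23.4% of all genes tested, where the other 4 libraries did so for 6.44 to 15.2%. The labels name no batch, date or lane. All 6 hepatocyte markers, Alb and Ttr among them, were detected in every library, and their levels are given with those of other cell types.

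The promoter sequences are shown because binding of the receptor to a response element is the textbook route by which such genes are regulated. Windows of 250 bases upstream of an annotated transcription start (RefSeq, GRCm38.p6) were matched by symbol for 7 of the 8 genes, 15 windows in all, all but Zbtb16. They were searched for the full glucocorticoid response element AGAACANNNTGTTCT, which reads the same on both strands, and for its half-site AGAACA on either strand, which each full element contains. The cyclic AMP response element TGACGTCA and the forkhead motif TGTTTAC, on either strand, were searched as well. The full element was found in 3 of 32851 windows of this length (0.00913%), and 1 of those 3 belonged to Sgk1. It lay 189 to 175 bases before the start, at chromosome 10, 21993701 to 21993715, and read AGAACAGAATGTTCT. Half-sites were found in 16.1% of all windows, and among the 8 genes in windows of Sgk1 and Tsc22d3. These genes had 6 and 3 of the 15 windows, and a gene with more windows has more chances of a match. TGACGTCA was found in 1.55% of all windows and in those of Dusp1 and Errfi1. TGTTTAC was found in 3.17% of all windows and in those of Hsd11b1 and Klf9. A match is a string of letters and was not tested as a binding site.

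The 4 stretches below hold such matches, in capitals, and were cut so as to leave out annotated exons. They are chr10:21993640-21993889 on the plus strand for Sgk1, chrX:140600660-140600772 on the minus strand for Tsc22d3, chr17:26508520-26508722 on the minus strand for Dusp1 and chr4:150854950-150855069 on the plus strand for Errfi1. The stretches of Sgk1, Dusp1 and Errfi1 lie inside the annotated span of their own gene, outside its exons, and that of Tsc22d3 lies just upstream of its gene. Capitals mark the full response element in Sgk1, the half-site in Tsc22d3, here as its reverse complement TGTTCT, and the cyclic AMP response element in Dusp1 and Errfi1.
Sgk1: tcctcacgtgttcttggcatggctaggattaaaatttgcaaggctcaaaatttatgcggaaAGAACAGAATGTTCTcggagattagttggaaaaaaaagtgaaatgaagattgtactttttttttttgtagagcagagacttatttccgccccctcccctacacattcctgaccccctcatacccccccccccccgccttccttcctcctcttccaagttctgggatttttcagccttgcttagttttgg
Tsc22d3: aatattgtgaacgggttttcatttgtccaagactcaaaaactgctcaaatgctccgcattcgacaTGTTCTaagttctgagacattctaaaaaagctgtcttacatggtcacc
Dusp1: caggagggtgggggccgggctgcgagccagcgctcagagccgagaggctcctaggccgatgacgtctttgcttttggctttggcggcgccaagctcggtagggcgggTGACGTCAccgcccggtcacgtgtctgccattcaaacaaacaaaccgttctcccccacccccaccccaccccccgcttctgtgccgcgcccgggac
Errfi1: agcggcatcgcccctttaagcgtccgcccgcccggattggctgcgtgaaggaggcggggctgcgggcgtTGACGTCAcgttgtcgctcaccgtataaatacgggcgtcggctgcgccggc

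Compared per kilobase of the longest annotated transcript, the mean level over the 6 libraries was highest for Errfi1, at 370 CPM per kilobase, and for Hsd11b1, at 267. Fkbp5 followed at 34.4, Tsc22d3 at 21.3, Dusp1 at 15.1, Klf9 at 14.8, Sgk1 at 5.82 and Zbtb16 at 2.55 CPM per kilobase. The ranges over the 6 mice of Errfi1 (301 to 529) and Hsd11b1 (179 to 398) overlapped, so this pair was not separated beyond its spread, while both lay above the range of Fkbp5 (24.8 to 49.0). The ranges of Fkbp5, Tsc22d3 (9.16 to 64.3), Dusp1 (6.81 to 50.8) and Klf9 (10.4 to 20.3) ran into one another, with the exception that Klf9 lay wholly below Fkbp5. Sgk1 (3.88 to 9.40) overlapped Zbtb16 (0.492 to 4.64), Dusp1 and the low end of Tsc22d3, and lay below Klf9 throughout.

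**Figure D1:**
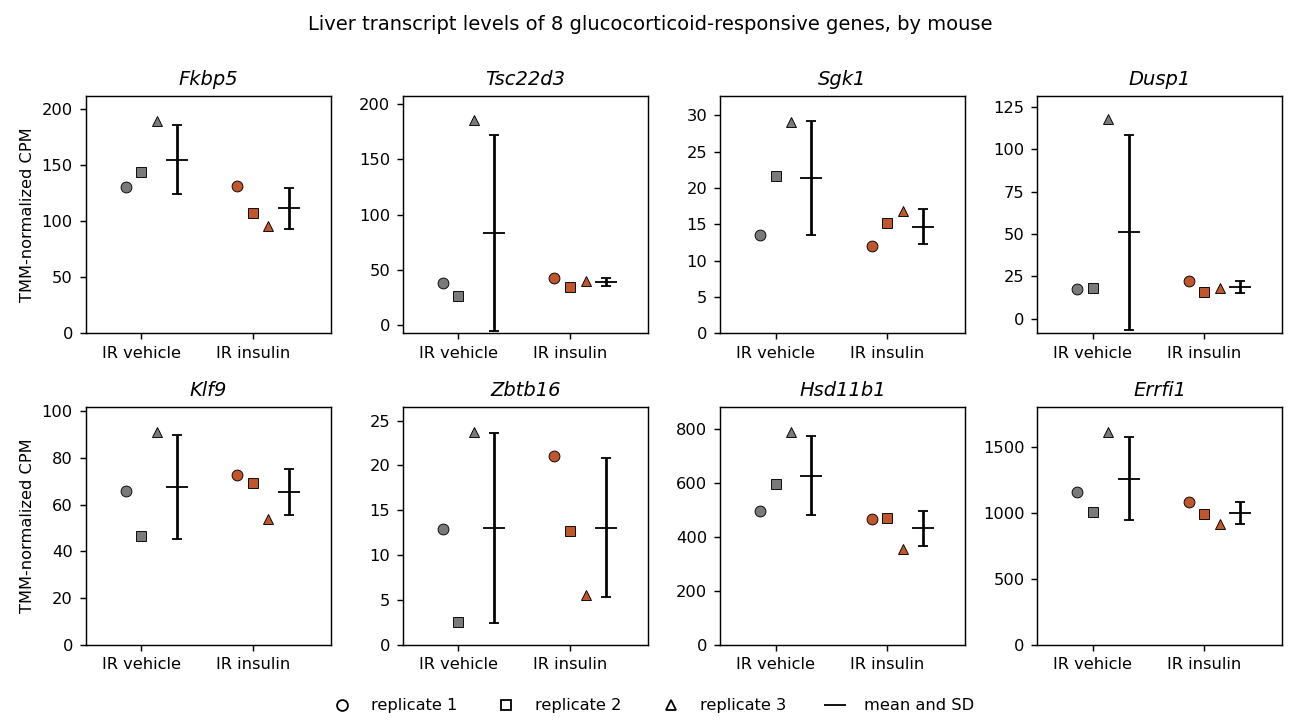
TMM-normalized CPM (vertical axis, linear, a separate scale for each gene) of the 8 genes in the 3 IR vehicle and 3 IR insulin mice, with a symbol for each replicate number and the group mean with its SD beside the points. The triangle of vehicle replicate 3 is the highest point in all 8 panels, at 185 CPM for Tsc22d3 and 118 CPM for Dusp1, where the other 5 mice lie at 26.3 to 42.5 and 15.8 to 22.3 CPM.

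The first genes act on the hormone and its receptor. Hsd11b1 encodes the enzyme that regenerates active corticosterone from its inert 11-dehydro form inside liver cells (chromosome 1, 193221634 to 193264075, minus strand, build 38). Its levels were 496, 595 and 787 CPM in the vehicle mice and 467, 469 and 355 CPM in the insulin mice. All 3 vehicle mice lay above all 3 insulin mice, though replicate 1 of the vehicle group was only narrowly above, and this was the 1 gene of the 8 whose groups did not overlap. Across all genes tested, 6.04% were separated in that direction. The groups did overlap when libraries were scaled by their totals alone or with an offset for GC content. Group means were 626 ± 148 CPM in the vehicle mice and 430 ± 65.2 CPM in the insulin mice (SD, n = 3). Insulin over vehicle gave a log2 fold change of −0.54 ± 0.27 (SE) at an unadjusted p of 0.0810. The adjusted p was 0.852 (edgeR) and ran from 0.506 to 0.9997 over the alternatives. Without vehicle replicate 3 the fold change was −0.34 ± 0.24 (unadjusted p 0.20). Hsd11b1 overlaps Lamb3 on the opposite strand. Whether reads were assigned by strand is not given, so Lamb3 reads may be among its counts.

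Fkbp5 encodes FKBP51, a co-chaperone of the receptor that lowers its affinity for hormone and closes a short feedback loop (chromosome 17, 28399094 to 28517527, minus strand). It was at 130, 144 and 189 CPM in the vehicle mice and at 131, 107 and 95.6 CPM in the insulin mice. The groups overlapped only in that insulin replicate 1 exceeded vehicle replicate 1 by about 1 CPM. Means were 154 ± 30.8 and 111 ± 18.3 CPM (SD, n = 3). Fkbp5 differed by −0.47 ± 0.25 (SE) on the log2 scale, at an unadjusted p of 0.0914. Its adjusted p was 0.852 (edgeR; 0.519 to 0.9997 over the alternatives). Leaving out vehicle replicate 3 gave −0.30 ± 0.23. A GC offset gave −0.62 ± 0.22 (unadjusted p 0.0225). Fkbp5 and Hsd11b1 varied alike, and their log2 levels had a Pearson's r of 0.96 over the 6 libraries and 0.89 over the 5 without vehicle replicate 3.

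A second set restrains or relays kinase signals. Dusp1 encodes MKP-1, a phosphatase that switches off MAP kinases and is also induced within minutes by stress and growth factors (chromosome 17, 26505590 to 26562128, minus strand). Its levels were 17.3, 18.2 and 118 CPM in the vehicle mice and 22.3, 15.8 and 17.9 CPM in the insulin mice. Vehicle replicate 3 alone was high, at 2464 counts against 296 to 495 counts elsewhere, and the other vehicle mice lay within the range of the insulin mice. The vehicle mean was 51.0 ± 57.6 CPM, or 17.7 ± 0.623 CPM over replicates 1 and 2, and the insulin mean was 18.7 ± 3.32 CPM (SD, n = 3). For Dusp1 the log2 fold change came to −1.45 ± 0.72 (SE; unadjusted p 0.0781, adjusted p 0.852, 0.506 to 0.9997 over the alternatives). Without vehicle replicate 3 it changed sign, to 0.073 ± 0.25 (unadjusted p 0.774). The annotated span of Dusp1 overlaps Ergic1 on the opposite strand, so reads of Ergic1 may be included.

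Errfi1 encodes MIG6, an inhibitor of the epidermal growth factor receptor, and was the most abundant of the 8 in CPM (chromosome 4, 150853919 to 150868892, plus strand). It was at 1160, 1002 and 1610 CPM in the vehicle mice and at 1083, 992 and 916 CPM in the insulin mice. Apart from vehicle replicate 3 the 5 mice lay close together and the groups overlapped. Means were 1257 ± 315 and 997 ± 83.7 CPM (SD, n = 3). Insulin over vehicle came to −0.33 ± 0.27 for Errfi1 on the log2 scale (SE; unadjusted p 0.255, adjusted p 0.852, 0.637 to 0.9997 over the alternatives), and −0.12 ± 0.23 without vehicle replicate 3. The antisense gene 1700045H11Rik overlaps Errfi1, and its reads may be included.

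Sgk1 encodes a serum- and glucocorticoid-regulated kinase that is activated downstream of phosphatidylinositol 3-kinase, the route by which insulin signals as well (chromosome 10, 21882184 to 21999903, plus strand). It was at 13.5, 21.6 and 29.1 CPM in the vehicle mice and at 12.0, 15.1 and 16.8 CPM in the insulin mice, from 255 to 610 counts a library. Vehicle replicates 2 and 3 were above all insulin mice, and vehicle replicate 1 lay among them. Means were 21.4 ± 7.81 and 14.6 ± 2.42 CPM (SD, n = 3). On the log2 scale Sgk1 differed by −0.55 ± 0.32 (SE; unadjusted p 0.121, adjusted p 0.852, 0.506 to 0.9997 over the alternatives). Leaving out vehicle replicate 3 gave −0.26 ± 0.29, and leaving out vehicle replicate 1 gave −0.79 ± 0.27 (unadjusted p 0.0264). In vehicle replicate 3 Sgk1 stood 1.93-fold above the median of the other 5 mice. Whether the response element in its window bears on its level was not tested.

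The third set consists of regulators of transcription. Tsc22d3 encodes GILZ, a leucine zipper protein through which glucocorticoids restrain inflammatory signals (chromosome X, 140539528 to 140600659, minus strand). It was at 37.9, 26.3 and 185 CPM in the vehicle mice and at 42.5, 34.9 and 40.3 CPM in the insulin mice. Again only vehicle replicate 3 was high, with 3880 counts where the other libraries had 429 to 943, and vehicle replicate 2 was lowest. Means were 83.1 ± 88.5 and 39.2 ± 3.92 CPM (SD, n = 3), and the vehicle mean over replicates 1 and 2 was 32.1 ± 8.15 CPM. Insulin over vehicle came to −1.08 ± 0.67 for Tsc22d3 on the log2 scale (SE; unadjusted p 0.144, adjusted p 0.852, 0.523 to 0.9997 over the alternatives). It turned to 0.29 ± 0.25 (unadjusted p 0.285) without vehicle replicate 3, and was −1.50 ± 0.55 (unadjusted p 0.0285) without vehicle replicate 2.

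Klf9 encodes a Krüppel-like factor that is a direct target of the receptor (chromosome 19, 23141226 to 23168134, plus strand). Its levels were 65.6, 46.5 and 91.0 CPM in the vehicle mice and 72.8, 69.4 and 54.0 CPM in the insulin mice. The insulin mice lay inside the vehicle range, with means of 67.7 ± 22.3 and 65.4 ± 10.03 CPM (SD, n = 3). For Klf9 the log2 difference was −0.050 ± 0.29 (SE; unadjusted p 0.866, adjusted p 0.966, 0.657 to 0.9997 over the alternatives), and 0.22 ± 0.26 without vehicle replicate 3.

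Zbtb16 encodes PLZF, a zinc finger repressor (chromosome 9, 48654297 to 48836222, minus strand), and varied most among the insulin mice. It was at 12.8, 2.52 and 23.7 CPM in the vehicle mice and at 21.1, 12.6 and 5.49 CPM in the insulin mice. The insulin mice differed by up to 3.84-fold, against 1.18- to 1.41-fold for the other 7 genes, and vehicle replicate 2 held only 41 counts. Means were 13.0 ± 10.6 and 13.1 ± 7.80 CPM (SD, n = 3). The log2 difference for Zbtb16 was 0.0014 ± 0.74 (SE; unadjusted p 0.999, adjusted p 0.9995, 0.612 to 0.9997 over the alternatives). The estimate moved to 0.76 ± 0.75 with vehicle replicate 3 left out and to −0.48 with vehicle replicate 2 left out. Its sign depended on the scaling, being −0.0090 with RLE size factors. Klf9 and Zbtb16 followed each other over the libraries, with r = 0.96 over 6 and 0.99 over the 5 without vehicle replicate 3. This pair too was among the highest of the 28 pairs of the 8 genes.

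None of the 8 genes was called at an adjusted p under 0.05 in edgeR, and 0% of all 13377 genes were. None was past the study's criteria either, nor at an unadjusted p under 0.05, against 2.86% of all genes tested (383 genes). DESeq2 put 1 of the 8 past those criteria, Dusp1 (log2 fold change −1.46, unadjusted p 0.0310), against 3.79% of all genes, and likewise none at an adjusted p under 0.05. The log2 fold change was negative for 7 of the 8, where 51.4% of all genes tested were negative, and its median over the 8 was −0.51, where over all genes it was −0.017. Without vehicle replicate 3 it was negative for 4 of the 8 (48.5% of all genes), with a median of −0.022 over the 8 and 0.024 over all genes. None of the 8 was then past the study's criteria (6.51% of all genes). In the fits without vehicle replicate 1 or 2, which give vehicle replicate 3 more weight, 3 of the 8 (Dusp1, Sgk1 and Hsd11b1) and 2 of the 8 (Dusp1 and Tsc22d3) were past the criteria, where 9.81% and 3.69% of all genes were. With a GC offset there were 2 (Dusp1 and Fkbp5, against 3.53% of all genes) and with no filter on low counts 1 (Dusp1, against 3.22%), all with a lower level after insulin.

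**Figure D2:**
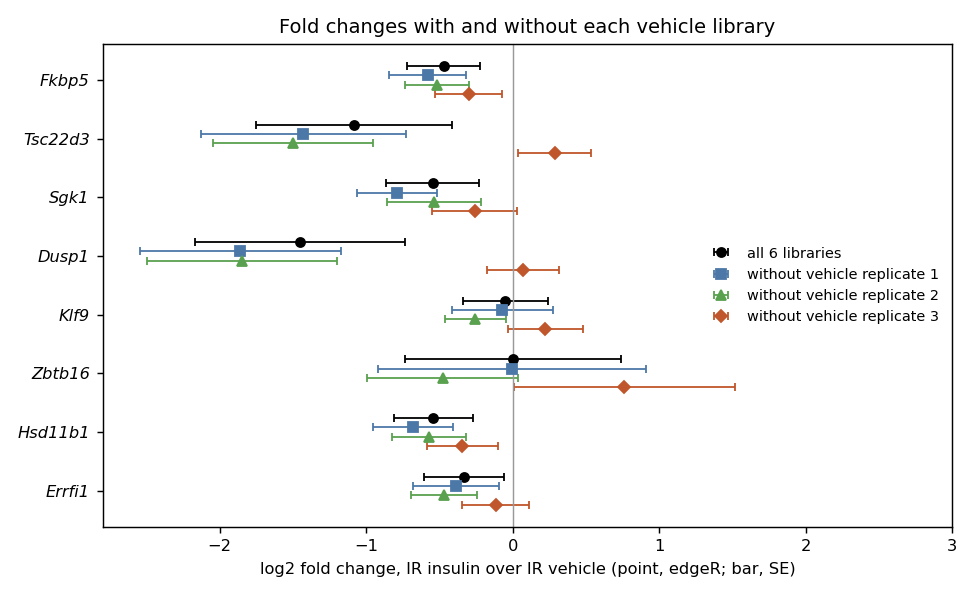
Log2 fold changes of IR insulin over IR vehicle (horizontal axis; points, edgeR estimates; bars, SE) for the 8 genes with all 6 libraries and without vehicle replicate 1, 2 or 3. Without vehicle replicate 3 the estimates of Tsc22d3 and Dusp1 move from −1.08 and −1.45 to 0.29 and 0.073, while those of Fkbp5 and Hsd11b1 stay below 0 at −0.30 and −0.34.

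The pattern of vehicle replicate 3 was noticed after the values were seen and is given as a description, with no test. That library held the highest level for 8 of the 8 genes under TMM, and 23.4% of all genes tested were highest there. The count was 8 also with RLE or upper-quartile factors, with totals alone and with a GC offset, where 20 to 26.3% of all genes were. Its log2 level exceeded the median of the other 5 libraries by 2.70 for Dusp1, 2.29 for Tsc22d3, 0.94 for Sgk1 and 0.90 for Zbtb16. For Hsd11b1, Errfi1, Fkbp5 and Klf9 the difference was 0.75, 0.68, 0.54 and 0.47. Ordered by this difference among the 13377 genes tested, Dusp1 was number 27 and Tsc22d3 number 46, and the other 6 stood between 730 and 2504. So a pair of the genes lay at the far end of what that library showed, and the rest lay within the upper 18.7% of genes. The median difference was 0.82 over the 8 genes and −0.0029 over all genes tested. In vehicle replicate 2, the other library that stood apart, 3 of the 8 genes were at their lowest (Tsc22d3, Klf9 and Zbtb16), where 37.4% of all genes were. Sgk1, Hsd11b1, Fkbp5 and Dusp1 in turn exceeded the median of the others there, by 0.51, 0.34, 0.15 and 0.018.

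**Figure D3:**
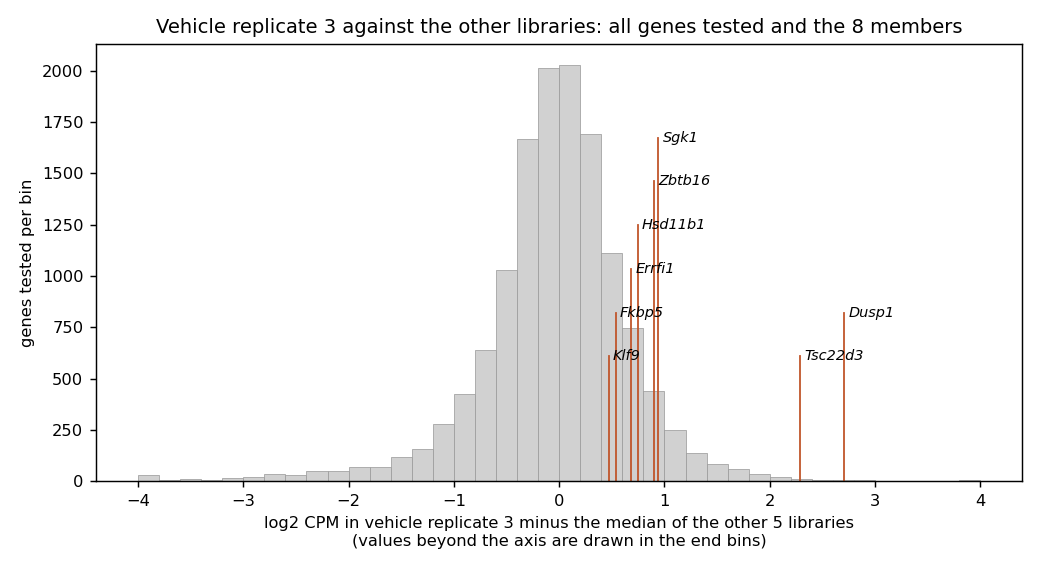
Distribution over all 13377 genes tested of the log2 CPM in vehicle replicate 3 minus the median of the other 5 libraries (grey bars, genes per bin of width 0.2), with a labelled vertical line for each of the 8 genes whose height carries no value. All 8 lines lie above 0, from 0.47 for Klf9 to 2.70 for Dusp1.

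The likeness among the 8 genes was read with and without that mouse, over their 28 pairs. Over the 6 libraries 27 pairs had a positive Pearson's r of log2 CPM, with a median of 0.69. Over the 5 libraries without vehicle replicate 3, 16 pairs did, with a median of 0.16 and a range from −0.98 (Sgk1 with Zbtb16) to 0.99 (Klf9 with Zbtb16). Tsc22d3 and Dusp1 went from 0.97 to 0.36, and Tsc22d3 and Sgk1 from 0.64 to −0.85. All points share libraries and their scaling, and no p is given.

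Among other genes averaging 50 counts or more, those closest to Fkbp5 over the 6 libraries were Slc6a12 (r = 0.98), which encodes a betaine transporter, Cox6c and Atp5f1 of the respiratory chain and ATP synthase, the processed pseudogene Gm8186 and Cd59a. Without vehicle replicate 3 their r was 0.94 to 0.99. Gm8186 can share reads with its parent gene, so its counts are uncertain. Tsc22d3 was closest to Apom, Sumo2, Fam234a, Atp1b1 and Txndc17, at r = 0.99 or above over 6 libraries and 0.88 to 0.96 over 5. For both members these genes were picked as the highest r among 10662, so a high r was set by the choice. The 5 libraries are part of the same 6, so the r over 5 is no separate support for a likeness. Apom, an apolipoprotein, reached 279 CPM in vehicle replicate 3, where the others lay between 86.1 and 115 CPM. An r over 0.9 with Fkbp5 was shared by 97 of 10662 genes, and with Tsc22d3 by 329.

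The receptors, their chaperones and coregulators, and the proteins that handle their ligand were read in the same way. Of 18 such genes 17 were tested, and vehicle replicate 3 was the highest library for 1 and the lowest for 8, where 23.4% and 23.8% of all genes were. Vehicle replicate 2 was the highest for 10, where 35.8% of all genes were. Hsd11b2, whose enzyme inactivates corticosterone, had no count in any library. Nr3c1 was at 69.8, 156 and 55.8 CPM in the vehicle mice and at 64.3, 64.8 and 61.9 CPM in the insulin mice. Vehicle replicate 2 was thus high and vehicle replicate 3 the lowest of the 6. Nr3c1 had an estimate of −0.56 ± 0.38 on the log2 scale (SE; unadjusted p 0.181), and 0.024 without vehicle replicate 2. H6pd, whose enzyme supplies NADPH to the Hsd11b1 product, was at 367, 377 and 286 CPM in the vehicle mice and at 469, 440 and 366 CPM in the insulin mice, again lowest in vehicle replicate 3. Its log2 fold change was 0.31 ± 0.24 (unadjusted p 0.231), and −0.26 with a GC offset.

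None of the 17 had an adjusted p under 0.05 in edgeR or DESeq2, and 2 were past the study's criteria in edgeR, where 2.86% of all genes tested were. Both were enzymes that reduce the steroid ring, with lower values after insulin. Srd5a1, a steroid 5α-reductase, was at 24.5, 56.0 and 48.3 CPM in the vehicle mice and at 20.1, 23.0 and 24.9 CPM in the insulin mice. Vehicle replicates 2 and 3 were high, and vehicle replicate 1 lay just inside the insulin range. The log2 fold change of Srd5a1 was −0.92 ± 0.32 (SE; unadjusted p 0.0213, adjusted p 0.852), and −0.83 (unadjusted p 0.0528) without vehicle replicate 3. Akr1d1, the 5β-reductase, was at 107, 130 and 191 CPM in the vehicle mice and at 72.6, 114 and 70.7 CPM in the insulin mice. Its log2 fold change was −0.73 ± 0.31 (unadjusted p 0.0459, adjusted p 0.852), −0.46 (unadjusted p 0.144) without vehicle replicate 3 and −0.57 (unadjusted p 0.162) with a GC offset. Nr3c2, the mineralocorticoid receptor, and Hspa8, a chaperone of the HSP70 family, followed at −0.72 ± 0.36 and −0.53 ± 0.27.

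Of 18 other genes known as glucocorticoid targets in liver, all 18 were tested. Of these 11 were highest in vehicle replicate 3, where 23.4% of all genes tested were. With libraries scaled by their totals alone 10 were, where 20% of all genes were. None of the 18 was called or had an unadjusted p under 0.05 in edgeR. A positive log2 fold change was found for 9 and a negative one for 9, and their median was −0.0028. DESeq2 put G6pc past the study's criteria (unadjusted p 0.0275), 1 of the 18, where 3.79% of all genes were, and likewise no target under 0.05 after adjustment. The 4 with the smallest p were G6pc and Pck1, which encode the gluconeogenic glucose 6-phosphatase and phosphoenolpyruvate carboxykinase, Cdkn1a, a cell cycle inhibitor, and Ppargc1a, a coactivator induced by fasting. G6pc was at 122, 104 and 365 CPM in the vehicle mice and at 61.9, 80.7 and 126 CPM in the insulin mice, and differed by −1.14 ± 0.52 on the log2 scale (SE; unadjusted p 0.0579), or −0.34 without vehicle replicate 3. The log2 fold changes of Pck1, Cdkn1a and Ppargc1a were −0.93 ± 0.54, 0.95 ± 0.55 and −0.67 ± 0.43.

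A further 3 were picked after their values were seen. Tat encodes tyrosine aminotransferase, the textbook glucocorticoid target of liver, and was at 916, 714 and 3268 CPM in the vehicle mice and at 1122, 717 and 1011 CPM in the insulin mice. Igfbp1 encodes an IGF-binding protein that glucocorticoids raise and insulin lowers, and was at 36.5, 3.99 and 266 CPM in the vehicle mice and at 14.05, 11.6 and 60.2 CPM in the insulin mice. Both were highest in vehicle replicate 3, and both changed sign without it, from −0.78 ± 0.57 to 0.22 and from −1.84 ± 1.26 to 0.495 on the log2 scale. Per1, a clock gene with a response to glucocorticoids, was at 14.6, 3.62 and 34.0 CPM in the vehicle mice and at 25.1, 17.1 and 28.4 CPM in the insulin mice. Targets that did not join the pattern included Mt1 and Lcn2, both lowest in vehicle replicate 3. Lcn2, an acute phase gene, was at 26.8 CPM there and 180 to 1963 CPM in the other 5 mice.

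**Figure D4:**
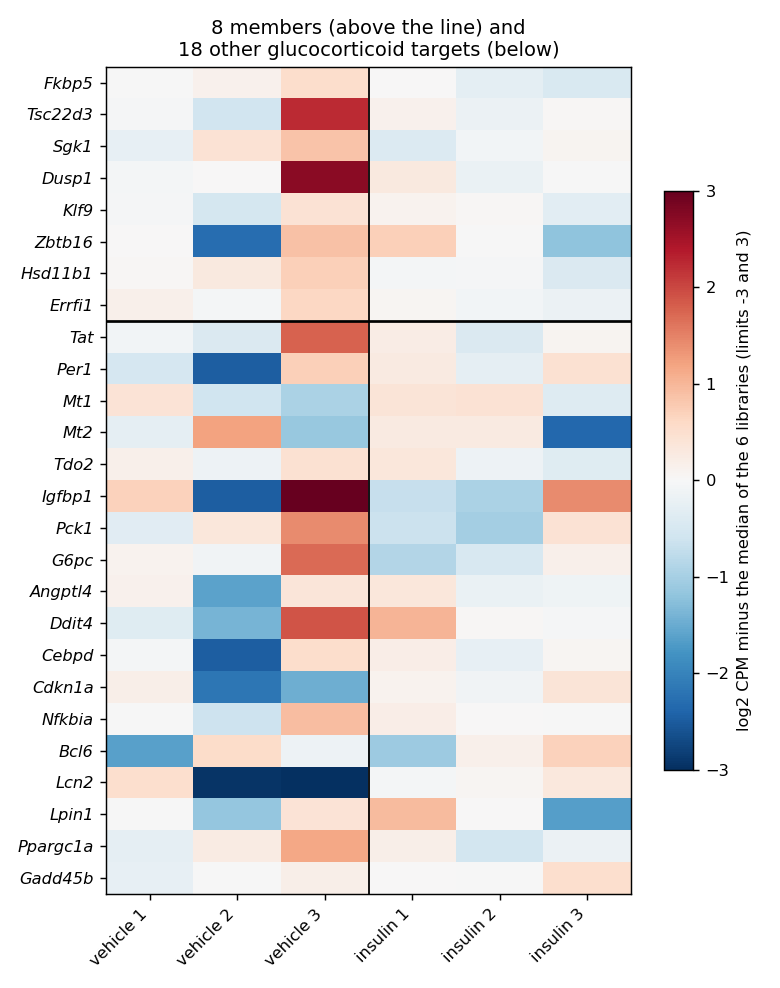
Log2 CPM of each gene minus its median over the 6 libraries (colour, limited to −3 and 3; red, above the median; blue, below) for the 8 genes above the line and 18 other glucocorticoid targets below it. The column of vehicle replicate 3 is the highest of its row for 8 of 8 and 11 of 18 genes, where 23.4% of all genes tested are. Lcn2, Cdkn1a, Mt2, Mt1 and Bcl6 are below their median there.

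Markers of hepatocytes did not move together. Of the 6, vehicle replicate 3 was highest for 3 (Ass1, Cps1 and Apoa1) and vehicle replicate 2 for 3 (Alb, Ttr and Cyp2e1). Of all genes tested, 23.4% and 35.8% were highest in these libraries. The urea cycle genes Ass1 and Cps1 stood 3.59- and 2.03-fold above the median of the other 5 mice in vehicle replicate 3. Alb was at 138554 CPM in vehicle replicate 2, where Ass1 (713 CPM) and Apoa1 (3901 CPM) were the lowest of the 6 libraries. The median over the 6 markers was −0.54 for the log2 fold change and 0.65 for the difference of vehicle replicate 3 from the others, beside −0.51 and 0.82 over the 8 genes. The medians of the 6 pool markers that differed in their highest library. None of the 6 was past the study's criteria.

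Transcripts of other cells were read as well, since Tsc22d3, Dusp1 and Zbtb16 are expressed outside hepatocytes too. In bulk liver, more cells of a type and more RNA per cell cannot be told apart. Of 5 sinusoidal endothelial markers 4 were highest in vehicle replicate 3, where 23.4% of all genes tested were. The 5 summed to 217 CPM there, against 125 to 138 CPM for the rest. The 6 Kupffer cell markers summed to 429 CPM there and to 245 to 456 CPM elsewhere, with 3 of the 6 highest in that library. Summed neutrophil markers were at 3.39 CPM there and 26.7 to 70.8 CPM elsewhere. Of these markers Ly6g and Camp were too low to be tested, with at most 8 and 3 counts in any library. In vehicle replicate 2, B cell markers summed to 40.3 CPM, against 2.86 to 10.04 CPM in the others. Erythroid markers ranged from 395 to 1181 CPM over the vehicle mice, highest in vehicle replicate 2, and from 292 to 448 CPM over the insulin mice. Of the 3 tested in edgeR, 2 were past the study's criteria, as were 2.86% of all genes tested in either direction. Both were lower with insulin, Hba-a1 (unadjusted p 0.0261) and Hbb-bs (unadjusted p 0.0365), and none of the 3 had an adjusted p under 0.05. Hba-a1 and Hbb-bs were highest in vehicle replicate 2, at 507 and 547 CPM, against 94.1 to 188 and 129 to 297 CPM elsewhere. The 5 T and NK cell markers summed to 1.29 to 2.33 CPM over the 6 libraries, and 3 of the 4 pancreas markers and 1 of the 4 adipocyte markers had no count in any. The part of hepatocyte content or of these other cells in the levels of the 8 genes was not tested.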

How the data were processed

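Liver RNA from 3 IR insulin and 3 IR vehicle mice was measured by RNA sequencing, 1 library per mouse. The deposited values were raw read counts per gene, left unnormalized by the authors and given for each mouse. According to the methods and the submitters' processing notes, libraries were made with the NEBNext Ultra RNA kit and reads were aligned with Bowtie2 2.2.3 to mm10. The counting program, its annotation and its use of strand are not given in the sources used here. Bowtie2 does not split reads over introns, so reads spanning exon junctions may be undercounted. Groups and replicate numbers came from the sample labels, and all 6 columns were used.

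Insulin was compared with vehicle by edgeR 4.0.16 (R 4.3.3; quasi-likelihood test, TMM, no covariate) over all genes kept by filterByExpr (minimum count 10, minimum total 15), with Benjamini-Hochberg adjustment over all 13377. Alternatives were RLE and upper-quartile factors, no filter, DESeq2 1.42.0, voom with sample quality weights (limma 3.58.1), a GC offset (loess, span 0.5; GC known for 13367 of the genes tested), the replicate number as a block, and each library left out. An exact permutation test of 3 against 3 cannot give a p under 0.1 and was not used. Positions, lengths and GC came from GENCODE M21 (build 38), which held 54409 of the 54532 genes, and promoter windows from RefSeq. Pearson's r used log2 CPM with a prior count of 2.

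The 8 genes, the lists and the tests were chosen with earlier results of these data known. Named besides the 8 were Nr3c1, H6pd, the 4 genes of each pathway list with the smallest p, and the 5 genes closest to Fkbp5 and to Tsc22d3. Tat, Igfbp1 and Per1, targets named outside this rule, and the marker genes named were chosen after their values were seen, as were Mt1 and Lcn2. No libraries were duplicates (lowest chi-square per degree of freedom 27.1). The spread between mice limited precision, with a biological coefficient of variation of 0.357, and p-values measure the spread between these mice only.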

Additional observations from a re-analysis of the deposited data

How the results depend on the processing

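No gene, and so none of the 8 and none of the pathway genes, had an adjusted p under 0.05 in any of the 14 alternatives. The number of genes past the study's criteria, 383, was 742 when low counts were not filtered, was 213 with voom, and ran from 99 (without insulin replicate 1) to 1349 (without vehicle replicate 1) with 1 library left out. Of the 8, the number past them was 0, and it was 1 with no filter and with DESeq2, 2 with a GC offset and 0 to 3 with 1 library left out. Of the pathway genes tested (17 and 18 in the 2 lists), 2 passed, where 383 of all 13377 genes did. With upper-quartile factors, a GC offset or voom 1 passed, where 349, 472 and 213 of all genes did. With no filter 5 passed (742 of all genes), with the replicate block 4 (321), and with the block and a GC offset together 5 (335). With 1 library left out 0 to 9 passed. The lowest was without insulin replicate 1 (99 of all genes) and the highest without vehicle replicate 1 (1349, or 9.81%). Over 21 named genes and 14 alternatives, 277 of 294 log2 fold changes kept their sign and 17 reversed, in 9 genes. Zbtb16 reversed with RLE factors (−0.0090), DESeq2 (−0.0065) and a GC offset (−0.096), Klf9 with the block and a GC offset together (0.033), and H6pd with a GC offset (−0.26) and with both (−0.12). With 1 library left out, the fold change ran from −1.50 to 0.29 for Tsc22d3, −1.86 to 0.073 for Dusp1, −0.25 to 0.22 for Klf9, −0.515 to 0.76 for Zbtb16, −0.83 to 0.024 for Nr3c1, −1.13 to 0.22 for Tat, −2.99 to 0.495 for Igfbp1 and −0.044 to 1.36 for Per1. For Tsc22d3, Dusp1, Tat and Igfbp1 the reversal was without vehicle replicate 3, for Klf9 without vehicle replicate 3 or insulin replicate 3, for Zbtb16 without vehicle replicate 1 or 2 or insulin replicate 1, and for Nr3c1 and Per1 without vehicle replicate 2. The causes were not tested beyond the removal itself. The labels give both groups replicate numbers and do not say whether same-numbered mice were paired. Deviations of same-numbered mice from their group means correlated at −0.039, 0.069 and 0.017, and 3 of 6 mice correlated best with their own number. With 3 mice per group these values cannot settle whether same-numbered mice shared anything more. With the replicate block, 321 genes and 0 of the 8 passed the study's criteria, and the estimates for Dusp1 and Tsc22d3 were −0.80 and −0.50.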
